A study of Mus musculus with 6 samples.

Results

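The 10 genes described here build the MHC class I presentation pathway and its immunoproteasome in the mouse: H2-K1, H2-D1, H2-T23, B2m, Tap1, Tap2, Tapbp, Psmb8, Psmb9 and Nlrc5. They were picked by gene symbol. All 10 were found, each under 1 Ensembl identifier, among the 43432 genes counted in every library, and all 10 had enough counts to be tested.

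Class I molecules show peptides from inside the cell at its surface, where CD8 T cells and natural killer cells read them. The proteasome cuts cytosolic proteins, the TAP transporter carries the peptides into the endoplasmic reticulum, tapasin holds an empty class I molecule beside TAP, and a heavy chain leaves for the surface together with beta-2-microglobulin and a bound peptide. Nearly all nucleated cells, muscle fibroblasts and macrophages included, make this machinery. Interferons raise it and exchange the catalytic proteasome subunits for the immunoproteasome forms.

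The series asks whether fibro-adipogenic progenitors (FAPs), the resident mesenchymal progenitors of skeletal muscle, need the IGF-I they make themselves, in a mouse model with a FAP-specific deletion of Igf1. Total RNA was sequenced from 3 libraries titled Control and 3 titled FID, all carrying the tag D3, and neither FID nor D3 is spelled out in the sources used here. The protocol is the same for every library: mice of 12 to 13 weeks of age got intraperitoneal tamoxifen at 100 ug per g of body weight for 5 days and then a washout of at least 1 week, so tamoxifen is common to both groups. Both sexes were used. The sources used here give neither the strain, nor the floxed allele, nor the driver of the recombinase, and do not state whether libraries of a group stem from different mice. The p-values therefore cover only the spread among these libraries, which may be technical.

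Gene counts per library ran from 5201853 in Control 1 to 10093757 in Control 3, and levels are CPM, counts scaled by TMM to a common library total. Igf1 did not separate the groups, at 134, 60.4 and 106 CPM in Control 1 to 3 and 109, 107 and 81.6 CPM in FID 1 to 3. Its count covers the whole gene, so it is no check of the labels, and groups are named only as labelled. The protocols speak both of total RNA and of RNA taken from primary FAPs, and which of them these libraries hold cannot be told from the sources used here. The labelled tissue, skeletal muscle, was not matched by its defining transcripts, since Ckm, the creatine kinase of muscle fibres, stayed at or below 1.19 CPM in all 6 libraries. Markers of FAPs summed to between 15090 and 27970 CPM and those of macrophages to between 3211 and 9476 CPM. The collagen gene Col1a1 alone made up 10260 to 23310 CPM of the FAP sums. Each library is a bulk measurement, in which the number of cells of a type and the RNA per cell cannot be told apart.

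Regulatory sequence of the class I genes is shown first. Several of the 10 genes share its layout, and whether that layout bears on their levels was not tested. The classical promoters carry an NF-kappa B element, an interferon-stimulated response element and, nearer the start site, a module in which a TGACG element bound by CREB and ATF factors stands upstream of an inverted CCAAT box bound by NF-Y. The NLRC5 protein acts on class I genes through the factors assembled on that module. The windows below hold the 250 bases upstream of the RefSeq start site in GRCm38.p6, 5' to 3' on the coding strand of the gene. They lie at chr17:34000348-34000597 on the minus strand for H2-K1, chr17:35262844-35263093 on the plus strand for H2-D1 and chr2:122147437-122147686 on the plus strand for B2m. Capitals mark, in order of appearance, matches to GGGGATTCCCC (H2-K1 and H2-D1 only), to GAANNGAAA (H2-K1 and H2-D1, on the other strand) or GAAANNGAAA (B2m), to TGACG and to ATTGG, the inverted CCAAT.
H2-K1: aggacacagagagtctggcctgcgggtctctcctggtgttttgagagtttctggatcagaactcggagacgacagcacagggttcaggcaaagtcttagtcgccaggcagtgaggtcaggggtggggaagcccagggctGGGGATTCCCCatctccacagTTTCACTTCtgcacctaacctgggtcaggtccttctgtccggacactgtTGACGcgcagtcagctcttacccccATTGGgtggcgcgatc
H2-D1: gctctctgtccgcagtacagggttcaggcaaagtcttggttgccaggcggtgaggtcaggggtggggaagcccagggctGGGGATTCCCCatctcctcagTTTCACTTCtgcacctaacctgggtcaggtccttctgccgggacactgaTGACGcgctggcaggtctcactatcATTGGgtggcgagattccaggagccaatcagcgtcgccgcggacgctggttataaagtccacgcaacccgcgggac
B2m: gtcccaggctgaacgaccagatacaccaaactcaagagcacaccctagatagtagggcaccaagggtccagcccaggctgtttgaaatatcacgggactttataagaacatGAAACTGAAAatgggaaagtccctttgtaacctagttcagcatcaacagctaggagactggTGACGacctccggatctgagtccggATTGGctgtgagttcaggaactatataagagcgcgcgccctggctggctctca

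In all 3 windows exactly 20 bases lay between TGACG and ATTGG. The pair, TGACG followed by ATTGG at a distance of 15 to 25 bases, searched on both strands, was found in 125 of 32851 RefSeq windows of the same length (0.381%), which belong to 116 of 27025 genes. Among the 8 of the 10 genes that matched a window, H2-K1, H2-D1 and B2m held it. Of the other class I and class I-like heavy-chain genes with a window, 2 of 16 held it. These were H2-M3 with 20 bases and H2-Q7 with 19 bases between the 2 motifs. The motif GGGGATTCCCC occurred in 10 of the 32851 windows (0.0304%), GAANNGAAA in 6.31% and GAAANNGAAA in 2.98%, the last also in H2-T23. Alone, TGACG and CCAAT were common, in 17.8% and 33.8% of windows. Aligned on these elements, the H2-K1 and H2-D1 windows had the same base at 166 of 190 positions (87.4%). The motifs and the spacing were chosen after the letters had been seen, and a match describes letters, not binding.

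Psmb9 and Tap1 lie head to head on opposite strands. In the gene annotation whose coordinates are given below, their exons overlap by 212 bases, so reads there may not be separated. Between their RefSeq start sites lie 225 bases, which serve as upstream sequence for both. That stretch, chr17:34187331-34187555 in GRCm38.p6 on the plus strand (Tap1 starts to its right), is shown with its CCAAT and TGACG matches in capitals.
Psmb9-Tap1: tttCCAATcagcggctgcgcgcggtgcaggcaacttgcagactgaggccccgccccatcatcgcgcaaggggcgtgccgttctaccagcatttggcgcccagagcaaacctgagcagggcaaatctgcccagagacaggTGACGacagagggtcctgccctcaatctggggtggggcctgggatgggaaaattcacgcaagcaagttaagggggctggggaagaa

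The 10 genes had higher means in FID than in Control libraries, and the difference came from FID 2 and FID 3. In 9 of the 10 genes, all but H2-D1, FID 2 and FID 3 lay above every Control library while FID 1 lay within the Control range. FID 2 and FID 3 above every Control library with FID 1 not above was found in 8.26% of the 12881 genes tested, a count that also takes in genes with FID 1 below the Control range. FID 2 had the highest and FID 3 the second highest level of all 6 libraries in each of the 10 genes. Together the 10 genes took 0.431%, 0.262% and 0.264% of gene counts in Control 1 to 3 and 0.435%, 0.967% and 0.761% in FID 1 to 3.

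The median log2 fold change of FID over Control was 1.36 (2.56-fold) over the 10 genes and -0.02 over all genes tested. All 10 lay above 0, as did 47.8% of all genes, and 8 exceeded a log2 fold change of 1, as did 3.84% of all genes. With edgeR's quasi-likelihood test and Benjamini-Hochberg adjustment over all genes, 0 of the 10 passed 0.05, as did 0% of all genes, where the smallest adjusted p was 0.109. Unadjusted p lay under 0.05 for 8 of the 10, the exceptions being H2-T23 and Tapbp, against 9.81% of all genes with FID higher and 9.21% with FID lower. The groups were free of overlap in 1 of the 10 genes, against 13.0% of all genes with FID higher. The call depended on the tool and on FID 1. DESeq2 called 4 of the 10 higher (3.89% of all genes) and limma-voom with sample weights 6 (6.88%), and edgeR without FID 1 called 6 (2.15%). Without FID 1 the median was 1.69 and without FID 2 it was 0.86, with 0 of the 10 called in the latter.

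**Figure D1:**
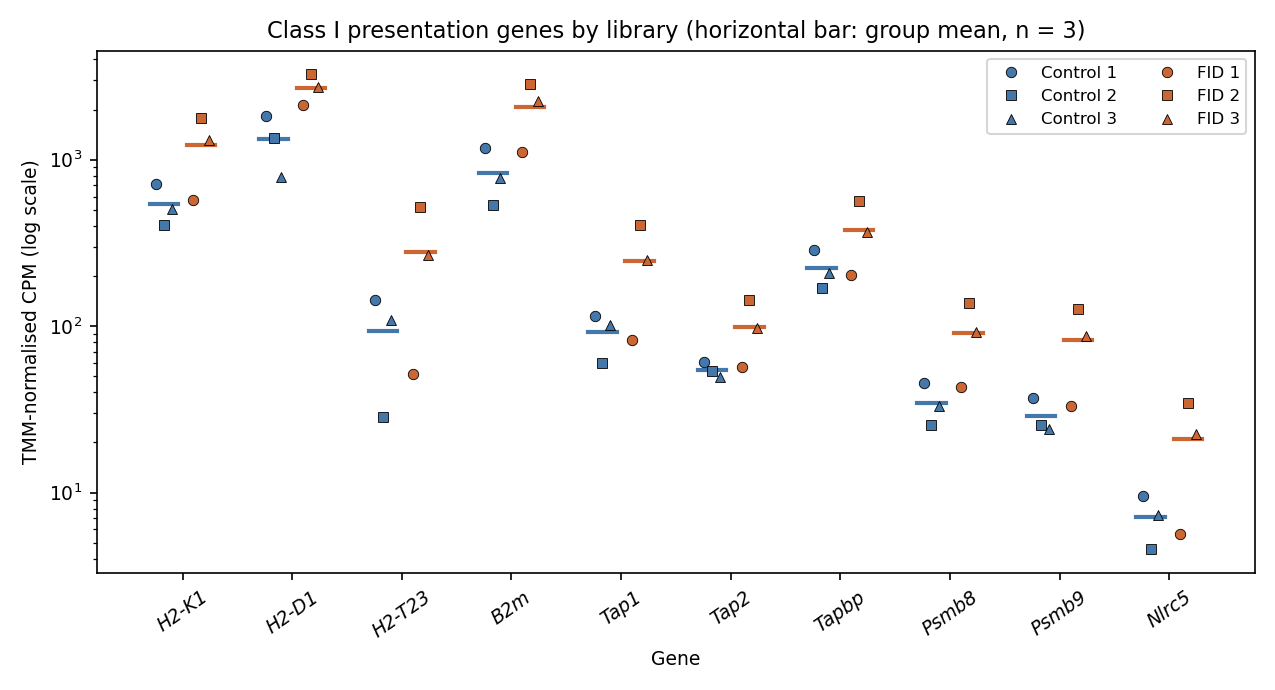
TMM-normalised CPM on a log scale of each of the 10 genes in the 6 libraries, with Control in blue, FID in orange, the marker shape giving the replicate number and a horizontal bar at the group mean (n = 3 each). FID 2 and FID 3 are the 2 highest libraries in every gene, while FID 1 lies among the Control libraries except for H2-D1.

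Among the classical heavy chains, which form the peptide-binding groove, H2-D1 was the one member whose groups did not overlap. H2-D1 (chromosome 17, 35262730 to 35267499, plus strand, protein coding, mm10) measured 1838, 1347 and 789 CPM in Control 1 to 3 and 2132, 3250 and 2727 CPM in FID 1 to 3. The lowest FID library was thus above the highest Control library, and FID 1 stood nearer to FID 2 and FID 3 than for any other member. Means were 1325 ± 525 against 2703 ± 559 CPM (SD, n = 3 each), a log2 fold change of 1.03 ± 0.31 (SE) with an adjusted p of 0.169 in edgeR and of 0.0336 in DESeq2.

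H2-K1, the other classical heavy chain measured (chromosome 17, 33996017 to 34000347, minus strand), stood at 718, 405 and 502 CPM in Control 1 to 3 and at 576, 1776 and 1309 CPM in FID 1 to 3. FID 1 fell between Control 3 and Control 1, and the other FID libraries lay above all Control libraries. Its log2 fold change was 1.17 ± 0.40 (SE) with an edgeR adjusted p of 0.195.

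H2-T23 encodes Qa-1, a nonclassical heavy chain that presents signal peptides of other class I molecules to the NKG2A receptor of natural killer cells. It varied more than any other member, with 143, 28.6 and 109 CPM in Control 1 to 3 and 51.8, 523 and 266 CPM in FID 1 to 3. Control 2 and FID 1 were the low libraries, and FID 2 was 10.09-fold above FID 1. The log2 fold change was 1.59 ± 0.83 (SE), with an adjusted p in edgeR of 0.336, so the largest fold change among the 10 genes had the widest error. H2-T23 lies on chromosome 17 at 36029773 to 36032855 on the minus strand.

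B2m encodes beta-2-microglobulin, the invariant light chain of every class I molecule, and lies apart from the MHC on chromosome 2 (122147686 to 122153083, plus strand). It measured 1182, 536.5 and 779 CPM in Control 1 to 3 and 1105, 2863 and 2256 CPM in FID 1 to 3. FID 1 was below Control 1. Means were 833 ± 326 against 2075 ± 893 CPM (SD, n = 3 each), with a log2 fold change of 1.32 ± 0.40 (SE) with an adjusted p of 0.172 in edgeR and of 0.0241 in DESeq2. None of its 50-base exon windows occurs in another gene, so its count cannot be shared with a copy.

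Heavy chains do share sequence. Of the 50-base exon windows, 9.63% in H2-K1, 12.8% in H2-D1 and 14.5% in H2-T23 also occur in another gene, and reads matching several places were set aside by the authors' counting. Such reads made up 3.11% to 3.47% of the entries in Control and 3.67% to 4.49% in FID, and their part in the heavy-chain values was not tested. Per kilobase of exon, the mean level over the 6 libraries was 1690 CPM for B2m, 781 for H2-D1, 300 for H2-K1 and 64.7 for H2-T23, so the light chain transcript was the most abundant on that scale.

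Peptide transport and loading came next. Tap1, a subunit of the transporter (chromosome 17, 34187553 to 34197225, plus strand), stood at 115, 59.7 and 102 CPM in Control 1 to 3 and at 82.2, 407 and 250 CPM in FID 1 to 3. Only FID 2 and FID 3 lay outside the Control range. The log2 fold change was 1.42 ± 0.53 (SE), with an adjusted p in edgeR of 0.218.

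Tap2, the partner subunit (chromosome 17, 34203527 to 34216321, plus strand), was the steadiest member in Control, at 60.7, 53.7 and 49.7 CPM, and measured 56.6, 143 and 97.8 CPM in FID 1 to 3. FID 1 again lay within the Control values. The log2 fold change was 0.86 ± 0.31 (SE), with an adjusted p in edgeR of 0.204. Antisense genes, Gm15821 and Gm20496, overlap part of Tap2, and 11.6% of its windows are shared, mostly with Gm15821. The 2 transporter subunits did not keep a fixed ratio: Tap1 over Tap2, per exon base, was 1.31, 0.767 and 1.42 in Control 1 to 3 and 1.00, 1.97 and 1.77 in FID 1 to 3.

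Tapbp encodes tapasin, the bridge between TAP and the empty class I molecule (chromosome 17, 33915899 to 33929292, plus strand). Its levels were 288, 169 and 209 CPM in Control 1 to 3 and 204, 564 and 369 CPM in FID 1 to 3, with the smallest log2 fold change of the 10 genes, 0.77 ± 0.37 (SE), and an edgeR adjusted p of 0.301. An antisense gene, Gm19412, overlaps it, and 23.2% of its windows are shared, mostly with that gene. The sources used here do not say whether the counting used strand, so the transcripts of both genes may not be separated. Tapbp over Tap1 was 3.79, 4.27 and 3.09 in Control 1 to 3 and 3.74 in FID 1, and lower in FID 2 and FID 3, at 2.09 and 2.23.

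Psmb8 and Psmb9 encode catalytic subunits of the immunoproteasome, known as LMP7 and LMP2, and sit beside the TAP genes in the MHC. Psmb8 (chromosome 17, 34197721 to 34201454, plus strand) measured 45.5, 25.3 and 33.0 CPM in Control 1 to 3 and 42.8, 137 and 92.4 CPM in FID 1 to 3. The log2 fold change was 1.40 ± 0.41 (SE), with an adjusted p in edgeR of 0.165 and in DESeq2 of 0.0225. An antisense gene, Gm20496, overlaps part of it.

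Psmb9 (chromosome 17, 34181987 to 34187764, minus strand) measured 36.8, 25.4 and 23.9 CPM in Control 1 to 3 and 33.1, 126 and 87.0 CPM in FID 1 to 3. FID 1 lay below Control 1 in both genes. The log2 fold change was 1.53 ± 0.45 (SE), with an adjusted p in edgeR of 0.164 and in DESeq2 of 0.0184, the smallest adjusted p of the 10 genes in either tool.

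Nlrc5, a member of the NLR family that acts as the transactivator of class I genes, had the lowest level of the 10. Nlrc5 (chromosome 8, 94434356 to 94527272, plus strand) stood at 9.49, 4.56 and 7.32 CPM in Control 1 to 3 and at 5.63, 34.3 and 22.6 CPM in FID 1 to 3. Its FID 2 level was 6.09-fold that of FID 1, a spread exceeded only by H2-T23. The log2 fold change was 1.58 ± 0.60 (SE), with an adjusted p in edgeR of 0.223, and per kilobase of exon its mean level was 1.65 CPM.

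On that per-length scale the order of mean levels below H2-K1 was Tapbp (82.8 CPM per kilobase), H2-T23, Tap1 (30.9), Tap2 (20.3), Psmb8 (18.5), Psmb9 (15.1) and Nlrc5. Over the 6 libraries the ranges of neighbours in the whole order overlapped, apart from Psmb9 (lowest 6.54) and Nlrc5 (highest 4.04). Within single libraries the order from B2m through H2-D1 and H2-K1 to Tapbp held in all 6, as did that from Psmb8 through Psmb9 to Nlrc5. H2-T23 exceeded Tapbp in FID 2, Tap1 exceeded H2-T23 and Tap2 exceeded Tap1 in Control 2, and Psmb8 exceeded Tap2 in FID 2 and FID 3.

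Ratios of 2 genes within a library, per exon base, do not depend on depth or scaling. The tightest of 8 ratios examined was Psmb8 over Psmb9, whose highest and lowest values over the 6 libraries differed 1.39-fold (1.08 to 1.49). H2-K1 over B2m followed with 1.45-fold (0.153 to 0.221), whereas H2-D1 over B2m differed 2.48-fold. For the head-to-head pair whose shared upstream sequence is printed above, Tap1 over Psmb9 differed 1.82-fold (1.57 to 2.85). The part of the exon overlap of these 2 genes in that ratio was not tested. H2-T23 over H2-K1 was the widest at 4.17-fold, with the low values in Control 2 (0.0718) and FID 1 (0.0915) and the highest in FID 2 (0.300).

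**Figure D2:**
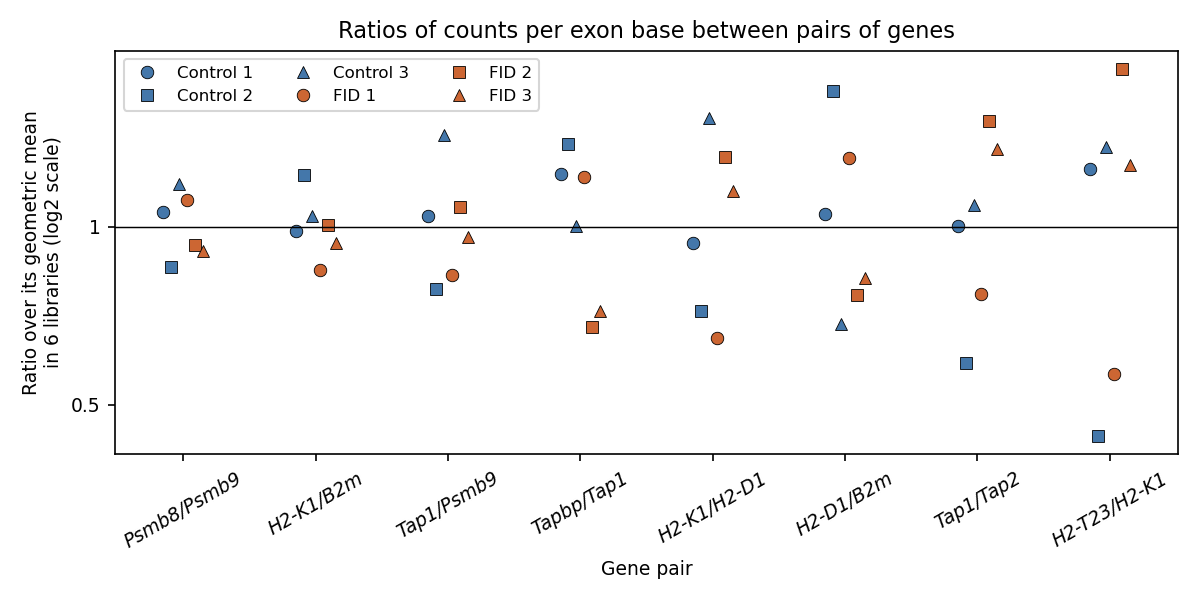
Ratios of counts per exon base between 8 pairs of genes, each divided by its geometric mean over the 6 libraries, on a log2 axis, with 1 point per library. Points of Psmb8/Psmb9 and H2-K1/B2m lie close to 1, while those of H2-T23/H2-K1 spread 4.17-fold.

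The other inducible proteasome genes went the same way. Psmb10 encodes the remaining catalytic subunit of the immunoproteasome, Psme1 and Psme2 the PA28 activator that caps it, and Pomp its assembly chaperone. All 5 tested genes of this list, which also holds Psme2b, had a log2 fold change above 0 (median 0.89) and an unadjusted p under 0.05 (9.81% of all genes), and 0 passed adjusted. Psmb10 stood at 72.4, 55.0 and 64.2 CPM in Control 1 to 3 and at 67.4, 213 and 133 CPM in FID 1 to 3 (log2 fold change 1.11, SE 0.37, edgeR adjusted p 0.191). Psme1 measured 117, 101 and 120 CPM in Control and 133, 303 and 218 CPM in FID, so that FID 1 lay above all Control libraries here (0.96, SE 0.28, edgeR adjusted p 0.164). Psme2 behaved alike at 115, 102 and 124 CPM against 136, 263 and 220 CPM (0.86, SE 0.24, edgeR adjusted p 0.158), but 28.3% of its windows are shared, mostly with Psme2b. Pomp had 0.48 (SE 0.16, edgeR adjusted p 0.181).

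The constitutive counterparts had smaller fold changes. Psmb5, Psmb6 and Psmb7 encode the catalytic subunits that Psmb8, Psmb9 and Psmb10 replace. Psmb5 measured 31.5, 32.1 and 32.1 CPM in Control 1 to 3 and 37.2, 33.8 and 32.1 CPM in FID 1 to 3 (log2 fold change 0.11, SE 0.12, edgeR adjusted p 0.674). Psmb6 measured 112, 111 and 107 CPM in Control and 143, 169 and 161 CPM in FID, without overlap (0.52, SE 0.12, edgeR adjusted p 0.136, DESeq2 adjusted p 0.0104), and Psmb7 had 0.38 (SE 0.12, edgeR adjusted p 0.186). For both, FID 1 lay with the other FID libraries and not with Control, unlike for Psmb8 and Psmb9.

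The balance of subunit transcripts was measured as the log2 ratio of each inducible subunit to its constitutive counterpart, per exon base. Exchange of subunits in assembled proteasomes was not measured. Psmb8 over Psmb5 was 0.385, 0.210 and 0.273 in Control 1 to 3 and 0.306, 1.08 and 0.766 in FID 1 to 3. The mean log2 ratio was -1.83 ± 0.44 in Control against -0.66 ± 0.94 in FID (SD, n = 3 each), a difference of 1.17 (two-sided exact permutation p 0.2, adjusted over the 3 ratios 0.3). Psmb9 over Psmb6 was 0.168, 0.117 and 0.115 against 0.119, 0.383 and 0.277, a log2 difference of 0.83 (exact permutation p 0.2, adjusted 0.3). Psmb10 over Psmb7 was 1.11, 0.757 and 0.856 against 0.799, 2.23 and 1.37, a difference of 0.59 (exact permutation p 0.3, adjusted 0.3). In all 3 ratios FID 1 fell within the Control range, and with 3 libraries against 3 this test cannot go below 0.1. Psmb5 shares 54.1% of its windows, mainly with the copy Gm3375, so its unique counts understate it and the level of the first ratio is not that of the transcripts.

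**Figure D3:**
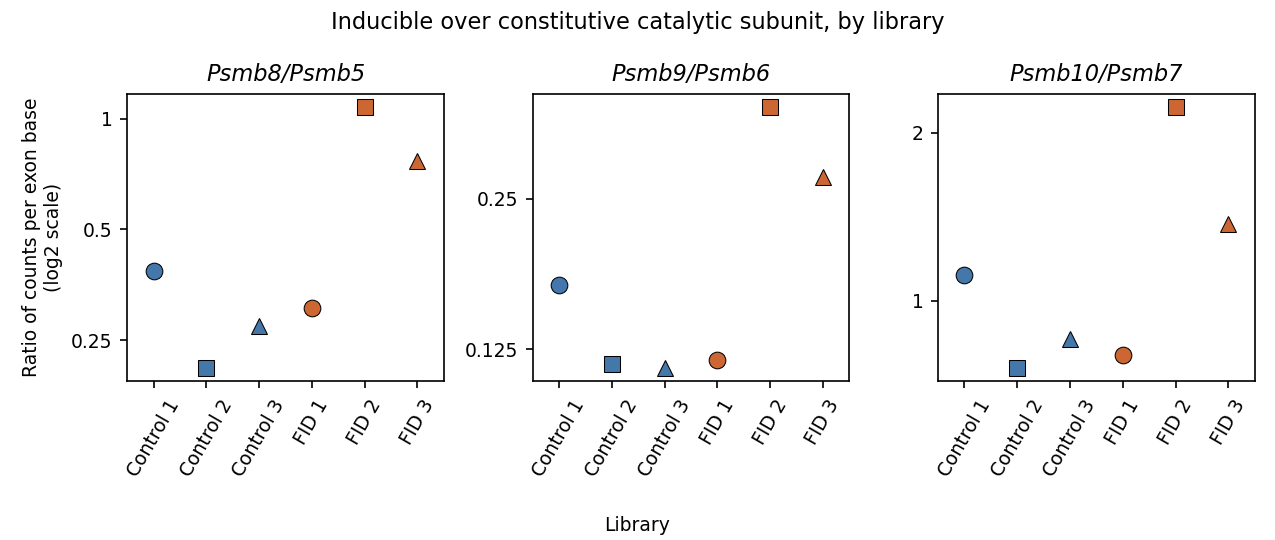
Ratio of counts per exon base of each inducible catalytic subunit to its constitutive counterpart in the 6 libraries, on log2 axes that differ between panels (Control blue, FID orange). FID 2 and FID 3 are the highest points in each panel and FID 1 lies within the Control range.

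The body of the proteasome differed by small amounts in 1 direction. Of the structural 20S core subunits, which form the barrel, all 11 lay above 0 with a median log2 fold change of 0.40, 8 had an unadjusted p under 0.05 and 8 were free of overlap, against 47.8%, 9.81% and 13.0% of all genes, and 0 passed adjusted. Psma6, Psma5 and Psma2 had 0.48 (SE 0.15), 0.55 (SE 0.17) and 0.49 (SE 0.15), with edgeR adjusted p of 0.168, 0.175 and 0.179. Of the 19S regulatory particle, which unfolds ubiquitinated substrates, all 18 lay above 0 with a median of 0.28 (0.17 without Control 1), 5 had an unadjusted p under 0.05, 7 were free of overlap and 0 passed adjusted. Psmd8 had 0.47 (SE 0.11, edgeR adjusted p 0.138), Psmd13 0.32 (SE 0.12, edgeR adjusted p 0.216) and Psmd4 0.30 (SE 0.12, edgeR adjusted p 0.235). FID 2 and FID 3 lay above Control with FID 1 not above in 3 of the 11 core genes and 2 of the 18 regulatory genes, against 8.26% of all genes.

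Partners in trimming, folding and loading differed little between the groups. Of 12 genes, 9 lay above and 3 below 0, with a median log2 fold change of 0.12 (0.06 without Control 1 and 0.25 without Control 3), and 0 had an unadjusted p under 0.05. Erap1, the aminopeptidase that trims peptides in the endoplasmic reticulum, stood at 89.8, 69.9 and 90.4 CPM in Control 1 to 3 and at 74.0, 128 and 121 CPM in FID 1 to 3 (0.37, SE 0.22, edgeR adjusted p 0.401). Tapbpl, the peptide editor TAPBPR, had 0.64 (SE 0.34, edgeR adjusted p 0.342), and the chaperone Calr 0.40 (SE 0.26, edgeR adjusted p 0.440). Tapbp, Tap1 and Tap2 had larger fold changes than any of these 12 genes, a difference that was not tested.

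Most of the other class I and class I-like heavy chains had higher means in FID. This list includes 4 tested genes outside the MHC, Mr1, Hfe, Fcgrt and Cd1d1. Of 13 tested genes of 22 listed, 10 lay above and 3 below 0, with a median log2 fold change of 1.13. The 3 below 0 were H2-Q10 and, outside the MHC, Fcgrt and Cd1d1. An unadjusted p under 0.05 was found for 6, against 9.81% of all genes with FID higher. Free of overlap were 4 with FID higher (13.0% of all genes) and 1, Cd1d1, with FID lower (12.3% of all genes). H2-T24, a nonclassical chain, stood at 19.8, 10.14 and 9.67 CPM in Control 1 to 3 and at 24.6, 120 and 73.7 CPM in FID 1 to 3 (2.50, SE 0.57, edgeR adjusted p 0.136, DESeq2 adjusted p 3.96e-04). H2-M3, which presents formylated peptides and whose promoter holds the 20-base spacing described above, stood at 22.2, 18.5 and 25.1 CPM against 27.7, 64.9 and 49.4 CPM (1.11, SE 0.30, edgeR adjusted p 0.148). H2-T10 had 1.96 (SE 0.64, edgeR adjusted p 0.183), but 50.4% of its windows are shared, mainly with H2-T22, so reads of the 2 genes may not be separated. H2-T10 stood at 15.6, 24.4 and 3.03 CPM in Control 1 to 3 and at 33.7, 66.5 and 66.5 CPM in FID 1 to 3, without overlap. H2-T22 differed by library, at 104, 18.55 and 113 CPM against 36.7, 457.5 and 218 CPM, with overlap (1.60, SE 0.91, edgeR adjusted p 0.372). H2-Q4, H2-Q6 and H2-Q7 had 1.33, 1.82 and 1.71. H2-Q10 had the lowest value of the list, -0.53 (SE 0.91, edgeR adjusted p 0.784), with 1.38, 0.608 and 12.0 CPM in Control 1 to 3 and 3.04, 3.99 and 3.02 CPM in FID 1 to 3.

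Class I-like genes outside the MHC had values near 0. Mr1, which presents vitamin B metabolites, had a log2 fold change of 0.09, Hfe, a regulator of iron uptake, 0.13, Fcgrt, the neonatal Fc receptor, -0.16, and Cd1d1, which presents lipids, -0.28. These 4 all pair with beta-2-microglobulin. The 4 edgeR adjusted p lay between 0.396 and 0.760, and their difference from the heavy chains in the MHC was not tested.

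**Figure D4:**
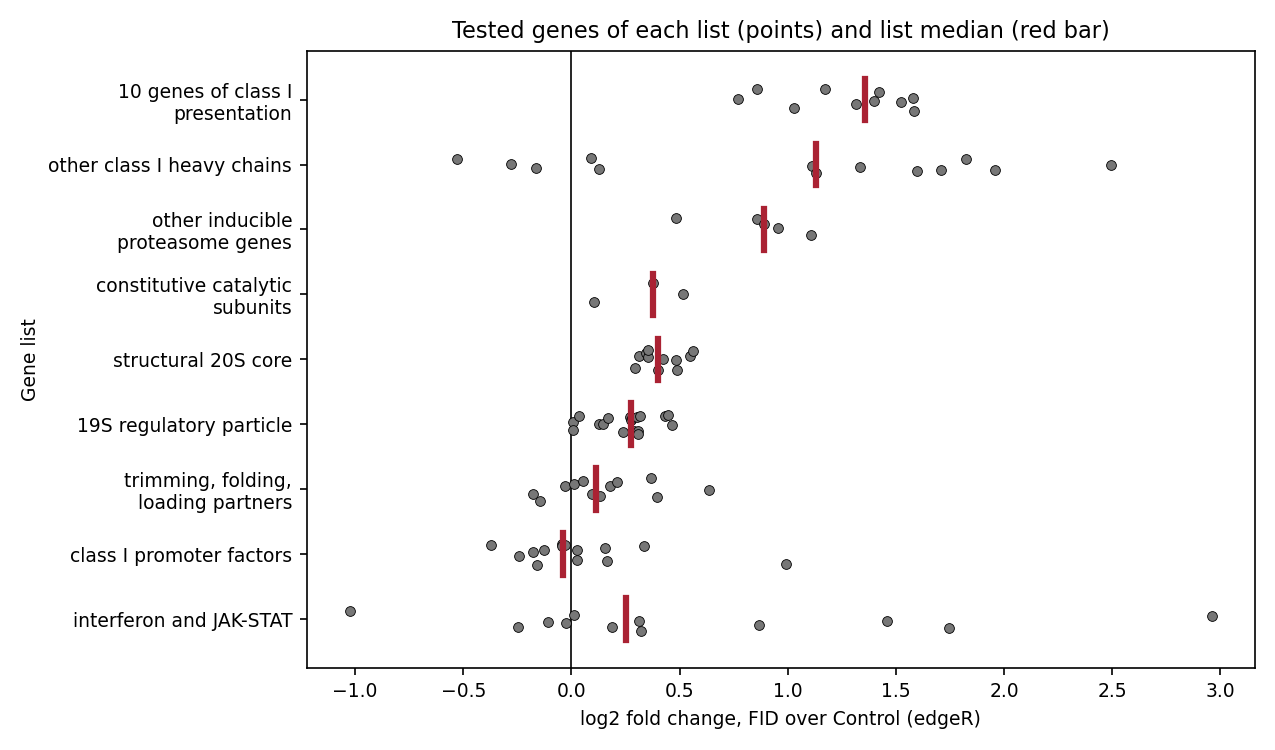
Log2 fold change of FID over Control for every tested gene (grey points) of the 10 presentation genes and 8 related lists, with the list median as a red bar and a line at 0. Medians are 1.36 for the 10 genes and 1.13 for other heavy chains, class I-like genes outside the MHC included. They are 0.89 for other inducible proteasome genes, 0.40 for the 20S core and 0.12 for trimming and loading partners.

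Factors that bind class I promoters went in both directions. Of 14 genes, 6 lay above and 8 below 0, with a median log2 fold change of -0.04, which was above 0 without Control 1 (0.08), without FID 2 (0.03) and with weighted limma-voom (0.05). Irf1, an interferon-induced activator of class I genes, measured 266, 89.6 and 74.9 CPM in Control 1 to 3 and 94.2, 189 and 99.9 CPM in FID 1 to 3 (-0.16, SE 0.51, edgeR adjusted p 0.894), with Control 1 the highest library. Rfx5, which joins NLRC5 on the promoter module, had -0.18 (SE 0.29, edgeR adjusted p 0.779). The 3 with the smallest p were Irf8, a myeloid factor, at 0.99 (SE 0.40, edgeR adjusted p 0.241) and called by weighted limma-voom (1.27, adjusted p 0.0264), Nfkb1, a subunit of NF-kappa B, at -0.37 (SE 0.17, edgeR adjusted p 0.286), and Irf2 at 0.34 (SE 0.25, edgeR adjusted p 0.492).

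The upstream interferon genes, from ligands and receptors to the factors they activate, covered a wide range. Of 12 tested genes, 8 lay above and 4 below 0, with a median log2 fold change of 0.25 (0.12 without FID 2). An unadjusted p under 0.05 was found for 4, Stat2, Irf9 and Irf7 among them, against 9.81% of all genes with FID higher. In 7 of the 12, FID 2 and FID 3 were above every Control library and FID 1 was not, against 8.26% of all genes. Stat2, a factor activated in type I interferon signalling, had 1.75 ± 0.58 (SE) as its log2 fold change, with an adjusted p in edgeR of 0.185. Irf7, the amplifier of type I interferon, stood at 186, 43.2 and 131 CPM against 181, 1561 and 1050 CPM (2.96, SE 0.81, edgeR adjusted p 0.152). Socs1, a feedback inhibitor of cytokine signalling, had the lowest value, -1.02 (SE 0.46, edgeR adjusted p 0.283). The kinases Jak1 and Jak2 had -0.11 and -0.25, and Jak1 was free of overlap with FID lower.

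Ifngr1, Ifngr2, Ifnar1 and Ifnar2, the receptor chains, had log2 fold changes of 0.01, 0.31, -0.02 and 0.19. Ifng, the gene of interferon gamma, had no count in any library, which allows up to 3 counts or 0.593 CPM in the shallowest library and 0.293 CPM in the deepest. Ifnb1, the gene of interferon beta, stayed at or below 0.108 CPM (1 count in a library), under those floors. Interferon alpha genes were not examined.

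By the rule used to find the most similar genes, the 5 whose log2 level followed the mean standardised level of the 10 genes most closely over the 6 libraries were Lgals9, Pgap2, Cmpk2, Ifi47 and Trim34a. Pearson's r was 0.998 for Lgals9 and 0.997 for the last 3, among 12871 genes compared, and the points share the same 6 libraries and their depth. Lgals9, a galectin, stood at 274, 165 and 213 CPM in Control 1 to 3 and at 232, 655 and 488 CPM in FID 1 to 3 (log2 fold change 1.08, SE 0.37). Cmpk2, a mitochondrial nucleotide kinase, stood at 37.2, 11.5 and 21.3 CPM against 27.6, 231 and 121 CPM (2.47, SE 0.74). Ifi47 and Trim34a had 1.91 (SE 0.66) and 1.49 (SE 0.55), and Pgap2, a gene of lipid anchor remodelling, 0.49 (SE 0.21). Their edgeR adjusted p lay between 0.169 and 0.259.

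Summed markers of other cell types had different levels in the groups as well. Macrophage markers summed to 5410, 5144 and 3211 CPM in Control 1 to 3 and to 9476, 8752 and 6521 CPM in FID 1 to 3, with 12 of 12 above 0 and a median log2 fold change of 0.74. FID 1 had the highest sum through Lyz2, the lysozyme gene (4302, 2193 and 1720 CPM in FID 1 to 3), whereas the mean of log2(CPM + 1) over the 12 genes was highest in FID 2 (8.70, 8.96 and 8.53 in FID 1 to 3). In 0 of the 12 were FID 2 and FID 3 above every Control library with FID 1 not above (8.26% of all genes). Monocyte markers summed to 253, 199 and 369 CPM against 414, 1883 and 1382 CPM, with 6 of 6 above 0 and a median of 2.17, and 1 of the 6, Plac8, had that arrangement. Ly6c2, a monocyte surface gene, stood at 33.8, 9.63 and 31.1 CPM against 54.2, 713 and 552 CPM. FAP markers summed to 27970, 27680 and 25830 CPM against 18690, 16470 and 15090 CPM, with 9 of 10 below 0, the exception being Ly6a. Most of these sums was the collagen gene Col1a1, at 23310, 22390 and 20280 CPM against 14400, 10910 and 10260 CPM. The mean of log2(CPM + 1) over the 10 FAP markers was 9.01, 8.99 and 9.03 in Control 1 to 3 and 8.70, 8.63 and 8.45 in FID 1 to 3. Endothelial markers summed to 3974, 1667 and 1073 CPM against 1317, 1771 and 1049 CPM, with Control 1 apart from the rest, 7 of 7 below 0 and a median of -0.65. No marker of these cell types passed 0.05 after adjustment in edgeR. The part of these cell types in the class I values was not tested.

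Lymphocytes were nearly absent from the counts. Markers of T and natural killer cells summed to between 2.54 and 15.2 CPM, and 1 of 12, Cd4, which macrophages can also express, passed the filter. Cd3e had no count in any library, Cd8a stayed at or below 0.225 CPM and Ncr1 at or below 0.324 CPM. Markers of B cells summed to between 1.07 and 4.94 CPM. Dendritic cell markers summed to 71.2, 33.6 and 19.2 CPM in Control 1 to 3 and to 34.0, 49.5 and 39.2 CPM in FID 1 to 3, with 4 of 7 tested above and 3 below 0.

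**Figure D5:**
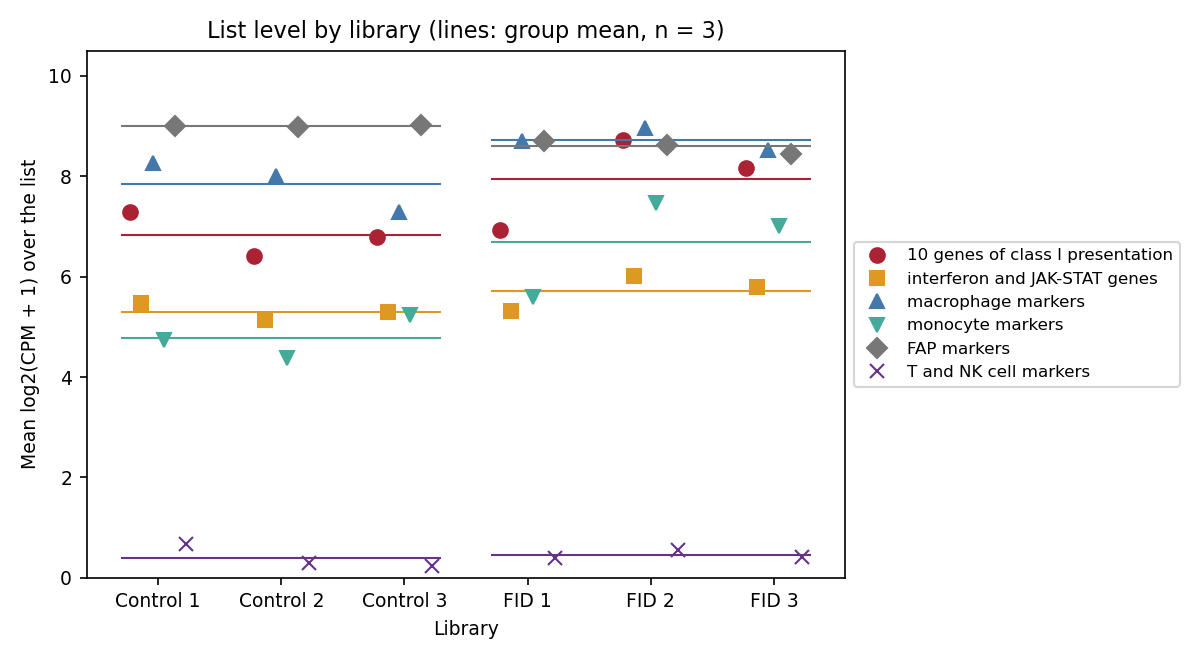
Mean of log2(CPM + 1) over the 10 presentation genes and 5 other lists in each library, with a line at each group mean (n = 3 each). The 10 genes stand at 6.92 in FID 1 and at 8.72 and 8.17 in FID 2 and FID 3, against 6.40 to 7.29 in Control, while macrophage markers stand at 8.53 to 8.96 in all 3 FID libraries against 7.29 to 8.26 in Control.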

How the data were processed

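The authors deposited raw read counts per gene (Ensembl identifiers), 1 table per library. Per the submitters' processing notes the reads were handled on mm10 with Bowtie2 2.5.4, STAR, SAMtools, HTSeq, cutadapt and DESeq2, whose roles are not stated. Annotation release and strand setting: not given in the sources used here. Per the labels' protocols, libraries were made from 1000 ng of RNA with a strand-specific kit. The minimum RNA integrity number was given as 5.6, the same for every library. Entries naming no gene (9.60% to 10.9% of each table) were left out, and 97.8% of identifiers matched a symbol.

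Genes passing filterByExpr (minimum count 10, minimum total 15; 12881 genes) were scaled by TMM and tested two-sided with edgeR 4.0.16 in R 4.3.3 with group as the only term, Benjamini-Hochberg adjustment over all genes and a threshold of 0.05. SE is the absolute log2 fold change over the square root of F. The biological coefficient of variation was 23.1%. A count of 0 allows up to 3 counts, for counting error only. No library duplicated another (chi-square per degree of freedom 14.1 to 46.0). The scripts were tested on simulated data. Alternatives were RLE factors, DESeq2 1.42.0, limma 3.58.1 voom with and without sample weights, no filter, a replicate block, 1 added count for the ratios, and each library left out.

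The 10 genes and all lists were chosen with earlier results of these data known. Named genes are the 10, up to 3 genes with the smallest p from each list, 13 set genes including the constitutive catalytic subunits, the 5 most similar genes and defining markers. 1 gene these rules name is not reported here. Other named genes (Psme2b, H2-Q4, H2-Q6, H2-Q7, H2-T22, Mr1, Hfe, Fcgrt, Cd1d1, Irf9, Ifnb1, the interferon receptors, Klrk1, H2-Q10, Socs1, Jak1, Jak2, Lyz2, Cd4, Ly6c2, Plac8, Ly6a, Col1a1) were chosen after their values were seen.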

Additional observations from a re-analysis of the deposited data

How the results depend on the processing

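All 10 log2 fold changes stayed above 0 under the 12 alternatives, and the median of the 10 genes ranged from 0.86 without FID 2 to 1.69 without FID 1. RLE factors, unweighted limma-voom and no filter called 0 of the 10, and no list beside the promoter factors changed the sign of its median. DESeq2 called 4 (H2-D1 1.03, B2m 1.31, Psmb8 1.39, Psmb9 1.52) and weighted limma-voom 6 (H2-K1 1.44, H2-D1 1.11, B2m 1.75, Tap1 1.72, Psmb8 1.67, Psmb9 1.63). With 1 library left out, 0 to 6 were called, the 6 without FID 1, and log2 fold changes ranged over 0.80 to 1.52 for H2-K1, 0.85 to 1.85 for Tap1, 0.50 to 1.15 for Tap2, 0.98 to 1.75 for Psmb8, 1.07 to 1.92 for Psmb9, 1.01 to 2.04 for Nlrc5, 0.77 to 2.09 for H2-T23 and 0.37 to 1.08 for Tapbp, each lowest without FID 2 and highest without FID 1. Those 6 had adjusted p of 0.0278 to 0.0467 without FID 1, and the cause was not tested. Weights ranged from 0.372 for Control 1 to 2.71 for Control 2. Of the 90 tested genes of the lists beside the 10, edgeR called 0 (0% of all genes), DESeq2 13 (6.3% of all genes) and weighted limma-voom 24 (11.9%). With no filter edgeR called 4 of 101 (1.26% of all genes). With 1 library left out it called 0 to 9, the 9 without FID 1 (2.73% of all genes). These 9 include Klrk1, which is below the filter with all libraries. The median of the promoter factors, -0.04, was 0.046 with weights and ranged from -0.076 to 0.078 with 1 library left out (0.078 without Control 1, 0.028 without FID 2). Over all genes, edgeR called 0 (2449 at an unadjusted p under 0.05), limma-voom 0, DESeq2 764, weighted limma-voom 1531, no filter 269, and edgeR without FID 1 359 and without Control 1 3. Deviations of same-numbered libraries had correlations of -0.01, -0.32 and 0.34. With 3 libraries per group these cannot tell whether the numbers pair the libraries. With a replicate block 0 of the 10 and 0 list genes were called and the median was 1.25. Differences of the catalytic ratios ranged over 0.79 to 1.70, 0.47 to 1.31 and 0.22 to 0.96 with 1 library left out, lowest without FID 2 and highest without FID 1. Depth limits the lowest genes, with a floor of 0.593 CPM in Control 1.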

Other observations

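Receptors that read class I molecules were examined as a further list of 9 genes, of which 2 had enough counts to be tested. Pirb, an inhibitory receptor of myeloid cells that binds class I molecules, stood at 60.9, 38.4 and 38.4 CPM in Control 1 to 3 and at 93.5, 136 and 90.3 CPM in FID 1 to 3, without overlap (log2 fold change 1.22, SE 0.24, edgeR adjusted p 0.136, DESeq2 adjusted p 0.00129). Pira2, an activating member of the same family, had 1.45 (SE 0.40, edgeR adjusted p 0.157). In both, every FID library, FID 1 included, lay above every Control library. The same held for 5 of the 12 macrophage markers, whose sums are given above (13.0% of all genes). The part of macrophages in the values of Pirb and Pira2 was not tested. Klrk1, the gene of the receptor NKG2D, stood at 0.593, 0.507 and 0.391 CPM in Control 1 to 3, at 0.676 CPM in FID 1 and at 9.35 and 7.67 CPM in FID 2 and FID 3. It was below the filter with all libraries and was therefore not tested. The CD8 co-receptor genes Cd8a and Cd8b1 stayed at or below 0.225 CPM, and Klrd1 and Klrc1, which encode the receptor for the H2-T23 product, at or below 0.791 and 0.113 CPM.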
